A study of Mus musculus with 2 samples.

Results

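Neutrophils are the short-lived granulocytes of blood, and in the left ventricle of the mouse after pressure overload they were sought among single-cell barcodes by 6 marker genes. A barcode was taken as a neutrophil if it held at least 4 unique molecular identifiers (UMIs, single counted RNA molecules) over S100a8, S100a9, Csf3r, Retnlg, Cxcr2 and Il1r2, from 2 or more of these genes. It also had to hold at most 1 UMI over the macrophage genes C1qa, C1qb and C1qc, and to have less than 2.5% of its UMIs outside mitochondrial (mt-) genes in the cardiomyocyte genes Ttn, Myh6, Ryr2 and Tnnt2. Of 26178 barcodes in all, 78 met this rule, and all 78 came from the library labelled p53 knockout. The cells were thus chosen by the measured UMIs of these genes, and the levels of the 6 markers describe the choice and are no result.

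The study had 2 libraries, 1 per genotype. The first carries the label wild-type and the second the label p53 knockout. Each was made from the left ventricles of 3 hearts mixed before sequencing, taken 6 weeks after transverse aortic constriction (TAC). In this operation a narrowed aorta raises the pressure the ventricle must work against. Hearts without TAC were not analysed here, so both groups carry the operation, and the labels give neither age, strain and sex nor which part of the p53 gene was deleted, in which cells, or by what promoter. With 1 library per genotype there is no spread between animals to test against, no p-value is given, and every interval covers counting error only.

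Neutrophils leave the bone marrow carrying ready-made granules, cross the wall of small veins by way of selectins and integrins, and follow chemokines and bacterial or complement fragments into injured tissue. CSF3, also called G-CSF, drives their production through its receptor Csf3r, and chemokines of the CXCL family act on Cxcr2. S100a8 and S100a9 encode calprotectin, among the most abundant proteins of their cytoplasm, whereas primary granule enzymes such as Elane and Mpo are transcribed in their marrow precursors. In a pressure-loaded heart they are known as early, inflammatory visitors.

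The library labelled p53 knockout held 20918824 UMIs in 10118 barcodes, and the library labelled wild-type held 18897913 UMIs in 16060 barcodes. Neutrophils were shallow, with a median of 911 UMIs (504 to 7257) and 603 genes, against a median of 1543 UMIs in the other barcodes of their library and 940 in the library labelled wild-type. Levels are given as UMIs of a gene per 1000000 UMIs outside mt- genes (CPM). Trp53, the gene labelled as knocked out, was counted at 55.3 CPM in the other barcodes of the library labelled p53 knockout and 38.8 CPM in the library labelled wild-type. Neutrophils held 4 Trp53 UMIs. Reads from the 3' end outside a deleted part would not report a deletion, so these counts neither check nor contradict the label. Xist, the RNA of the inactive X chromosome, stood at 927 CPM in the other barcodes of the library labelled p53 knockout and 2.34 CPM in the library labelled wild-type. Y-linked genes stood at 7.41 and 543 CPM, so the sex of the hearts and the genotype cannot be told apart. The neutrophils matched their own library, with 987 CPM of Xist and 1 UMI of Y-linked genes. The labels call the cells cardiomyocytes, while fibroblast, endothelial and immune markers were all present. The libraries shared 105 barcode sequences, 0 of them neutrophils.

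Neutrophils were found in 1 library. They made up 0.771% of the barcodes of the library labelled p53 knockout (exact Clopper-Pearson 95% interval 0.610 to 0.961%, 78 of 10118). The library labelled wild-type held none (0 of 16060, exact upper limit 0.0230%). A count of 3 there would be 0.0187%. Set against 3 counts, the share was 41.3-fold higher. This is not a lower limit, because the exact upper limit is above 3 counts and the share has counting error of its own. The library labelled wild-type would have held 124 neutrophils at the share of the other. Among barcodes under the cardiomyocyte limit the counts were 78 of 9415 and 0 of 11430, 31.6-fold apart when 0 is set at 3 counts. After every barcode had been thinned to 500 UMIs, which removes the difference in depth and leaves no barcode out, 49 and 0 barcodes passed the rule, and 45 of the 49 were among the 78. At that equal depth the share was 25.9-fold higher when 0 is set at 3 counts. At the share of the other, 77.8 neutrophils would have been found in the library labelled wild-type. The difference is between these libraries and not a tested difference between genotypes.

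The library that held the neutrophils also held more of other blood cells. By marker minimums of the same kind, it had 487 macrophage, 45 monocyte or dendritic, 199 B and 19 T or NK barcodes. The library labelled wild-type had 384, 4, 40 and 2. As shares of barcodes these were 4.81%, 0.445%, 1.97% and 0.188%, against 2.39%, 0.0249%, 0.249% and 0.0125%. These counts were not repeated at equal depth, and the median depth was 1540 against 940 UMIs. Haemoglobin RNA, a sign of blood, stood at 6154 CPM in neutrophils, 2562 CPM in the other barcodes of their library and 725 CPM in the library labelled wild-type. It was spread thinly, with a median of 0.360% and a highest value of 8.29% of a neutrophil's UMIs, and 0 neutrophils, 18 other barcodes of their library and 2 of the other library reached 10%. The part of retained blood, or of the way the hearts were taken, in the number of neutrophils was not tested.

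Sums of 4 or more UMIs over the 6 markers, which the rule used, occurred in 1 library, and sums of 0 to 3 occurred in both. Neutrophils held 4 to 46 marker UMIs with a median of 9, and 17 lay close to the minimum, 9 of them at 4 UMIs and 8 at 5. Just outside, 41 other barcodes of the library labelled p53 knockout held 3 marker UMIs and 100 held 2, while 9391 held 0. A further 37 reached 4 UMIs but were kept out, 13 because all came from 1 gene, 26 because of C1q and 1 because of cardiomyocyte genes, some for more than 1 reason. The 26 over the C1q limit held a median of 7 marker UMIs and 3 C1q UMIs at a median depth of 2226 UMIs. In the library labelled wild-type 15935 barcodes held 0 marker UMIs, 109 held 1, 15 held 2 and 1 held 3, which was the highest value there.

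**Figure D1:**
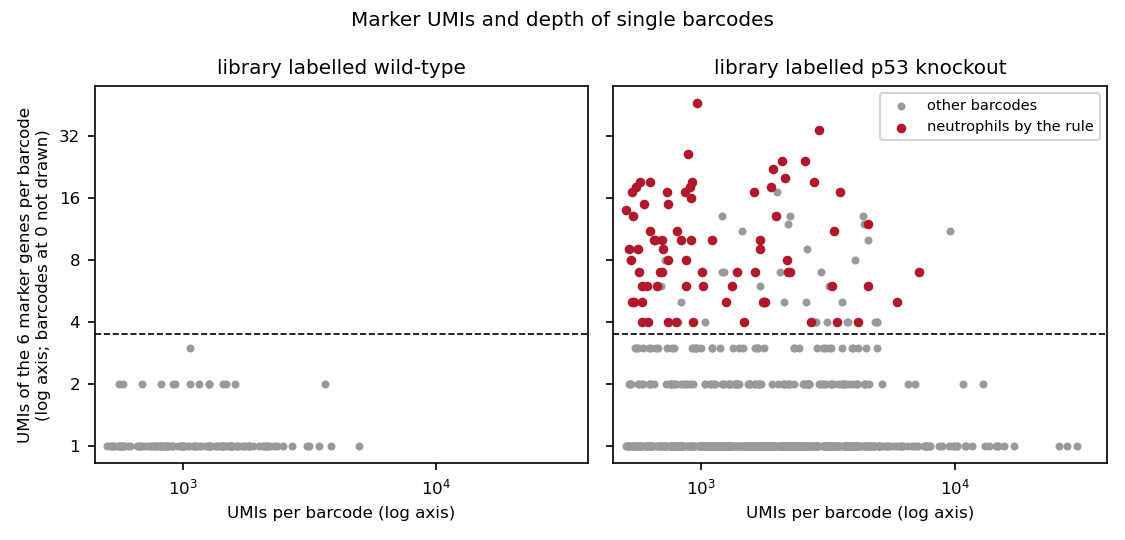
UMIs of the 6 marker genes per barcode (vertical, log axis) against all UMIs of the barcode (horizontal, log axis) for both libraries, with the 78 neutrophils in red and the minimum of 4 UMIs as a dashed line. The highest barcode of the library labelled wild-type holds 3 marker UMIs, and the neutrophils of the other library reach 46 at depths from 504 to 7257 UMIs.

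Among the markers, Csf3r, the G-CSF receptor, was the most widely detected, with 255 UMIs in 67 of the 78 neutrophils (2248 CPM). S100a8 and S100a9, the calprotectin subunits, had 154 UMIs in 51 neutrophils (1358 CPM) and 185 UMIs in 50 (1631 CPM). The chemokine receptor Cxcr2 had 125 UMIs in 41 neutrophils (1102 CPM), and Il1r2, the decoy receptor of interleukin-1, had 121 UMIs in 44 (1067 CPM). Retnlg, a resistin-like secreted protein, was the rarest marker, with 27 UMIs in 9 neutrophils (238 CPM). Most neutrophils carried several markers, since 18 had 2, 29 had 3, 18 had 4, 11 had 5 and 2 had all 6 genes. S100a8 or S100a9 was counted in 65 neutrophils, and in 13 neither was seen.

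Outside the neutrophils the markers were scarce but not absent. The 78 barcodes, 0.771% of the library, held 44.8% of its marker UMIs and 49.2% of its S100a8 UMIs. Over whole libraries the 6 genes gave 1934 UMIs (97.6 CPM) in the library labelled p53 knockout and 142 UMIs (7.92 CPM) in the library labelled wild-type. S100a8 alone gave 313 UMIs against 2, and Csf3r 762 against 102.

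The promoters of some leading genes are shown because the neutrophil genes were high together, and because the motifs of C/EBP factors, PU.1 and NF-kB, which drive granulocyte and inflammatory genes, can be read in them. The sequences are from RefSeq (GRCm38.p6), from the 250 bases before the start of each gene, on the gene's strand from 5′ to 3′ and cut where GENCODE vM21 places a transcript of the gene, which took 93 bases from the 3′ end of S100a8 and 28 from that of Cxcl2. Distances are from the first base of the motif to the RefSeq start, the bases cut included. Capitals mark a motif: PU.1 in S100a8 (chr3:90668821-90668977, plus strand, 171 bases before the start) and Cd300lf (chr11:115133993-115134242, minus strand, 44 bases), C/EBP in S100a9 (chr3:90695722-90695971, minus strand, 236 bases) and Retnlg (chr16:48872358-48872607, plus strand, 246 bases), and NF-kB in Cxcl2 (chr5:90903649-90903870, plus strand, 97 bases).
S100a8: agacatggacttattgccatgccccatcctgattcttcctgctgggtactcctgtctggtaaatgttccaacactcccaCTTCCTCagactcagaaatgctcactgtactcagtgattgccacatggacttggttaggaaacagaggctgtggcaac
Cd300lf: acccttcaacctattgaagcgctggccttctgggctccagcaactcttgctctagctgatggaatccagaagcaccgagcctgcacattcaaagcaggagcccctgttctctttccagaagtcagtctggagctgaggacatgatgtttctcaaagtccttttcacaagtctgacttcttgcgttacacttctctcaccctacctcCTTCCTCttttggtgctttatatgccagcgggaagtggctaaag
S100a9: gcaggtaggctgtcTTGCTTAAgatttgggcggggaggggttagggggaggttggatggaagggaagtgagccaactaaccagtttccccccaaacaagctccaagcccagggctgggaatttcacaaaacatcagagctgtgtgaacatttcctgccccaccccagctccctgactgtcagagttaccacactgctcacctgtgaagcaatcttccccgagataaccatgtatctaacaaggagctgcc
Retnlg: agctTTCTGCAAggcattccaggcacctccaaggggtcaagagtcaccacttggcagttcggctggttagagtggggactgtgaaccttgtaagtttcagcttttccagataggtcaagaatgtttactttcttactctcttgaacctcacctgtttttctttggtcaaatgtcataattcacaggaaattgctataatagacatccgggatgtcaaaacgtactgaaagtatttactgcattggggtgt
Cxcl2: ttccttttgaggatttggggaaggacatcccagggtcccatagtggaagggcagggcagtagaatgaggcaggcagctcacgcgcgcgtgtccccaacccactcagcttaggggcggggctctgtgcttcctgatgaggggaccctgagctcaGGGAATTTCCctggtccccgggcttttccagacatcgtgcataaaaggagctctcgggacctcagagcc

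The motifs were searched on both strands in the whole 250 bases, for the 6 markers and the 25 genes highest in neutrophils, of which 26 of 31 matched the table. PU.1 (GAGGAAG or CTTCCTC) was present in 8 of 26 (30.8%) and in 12.0% of all 27025 genes. C/EBP (TTNNGCAA or TTGCNNAA) was present in 4 of 26 (15.4%) and in 10.8% of all genes. The NF-kB motif, in capitals in the Cxcl2 promoter and searched with any base at the fifth and the eighth place, was present in 1 of 26 (3.85%), Cxcl2, and in 1.13% of all genes. The 8 with PU.1 were S100a8, Csf3r, Cd300lf, Cd33, Clec4d, Cyp4f18, Mirt1 and Pilra, and the 4 with C/EBP were S100a9, Retnlg, Sorl1 and Pilra. A match is a description of the letters, and these shares were not tested.

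Against all other barcodes of the library labelled p53 knockout, the neutrophils stood out by inflammatory genes that their choice did not use. Acod1, which makes itaconate, was 183-fold higher (38 UMIs, 335 against 1.83 CPM), and Mmp9, the gelatinase of tertiary granules, 158-fold higher (51 UMIs, 450 against 2.84 CPM). Il1b, the precursor of interleukin-1 beta, was the most abundant of the leading genes, with 156 UMIs in 43 neutrophils and 1375 against 21.9 CPM (62.8-fold). Genes were compared where the mean CPM of both groups was at least 100, and ratios have 0.5 UMI added to each sum. A gene rare in other barcodes could enter only if it was high in neutrophils, so a count over the genes that entered describes them and is no evidence. Of 2635 genes compared, 298 (11.3%) were 2-fold or more higher and 139 (5.28%) 2-fold or more lower, with a median log2 ratio of 0.07.

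The 25 genes with the highest ratios covered several neutrophil functions, and each was at least 14.6-fold higher. Receptors among them were Trem1, an amplifier of inflammatory signals (70.6-fold), the chemokine receptor Ccr1 (33.5-fold), the inhibitory receptors Cd300lf (35.5-fold), Cd33 (16.6-fold) and Pilra (14.6-fold), the lectin Clec4d (26.8-fold), the endotoxin co-receptor Cd14 (17.0-fold), the shared cytokine receptor chain Csf2rb (19.8-fold) and the selectin ligand Selplg (19.7-fold). Secreted or synthetic products were Il1b, the neutrophil attractant Cxcl2 (31.8-fold) and Hdc, which makes histamine (31.9-fold). Metabolic genes were Pygl, a glycogen phosphorylase (24.9-fold), the lactate exporter Slc16a3 (15.1-fold) and Cyp4f18, which breaks down leukotriene B4 (23.8-fold). Slfn4 (44.5-fold) and Ifitm1 (32.8-fold) are interferon-inducible. Rab44, a Rab-family GTPase, was 70.2-fold higher, and Sycp2, known as a protein of meiotic chromosomes, 65.2-fold higher with 35 UMIs in 16 neutrophils. The other members of the 25 were Trim30b, Mirt1, Mxd1 and Sorl1.

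**Figure D2:**
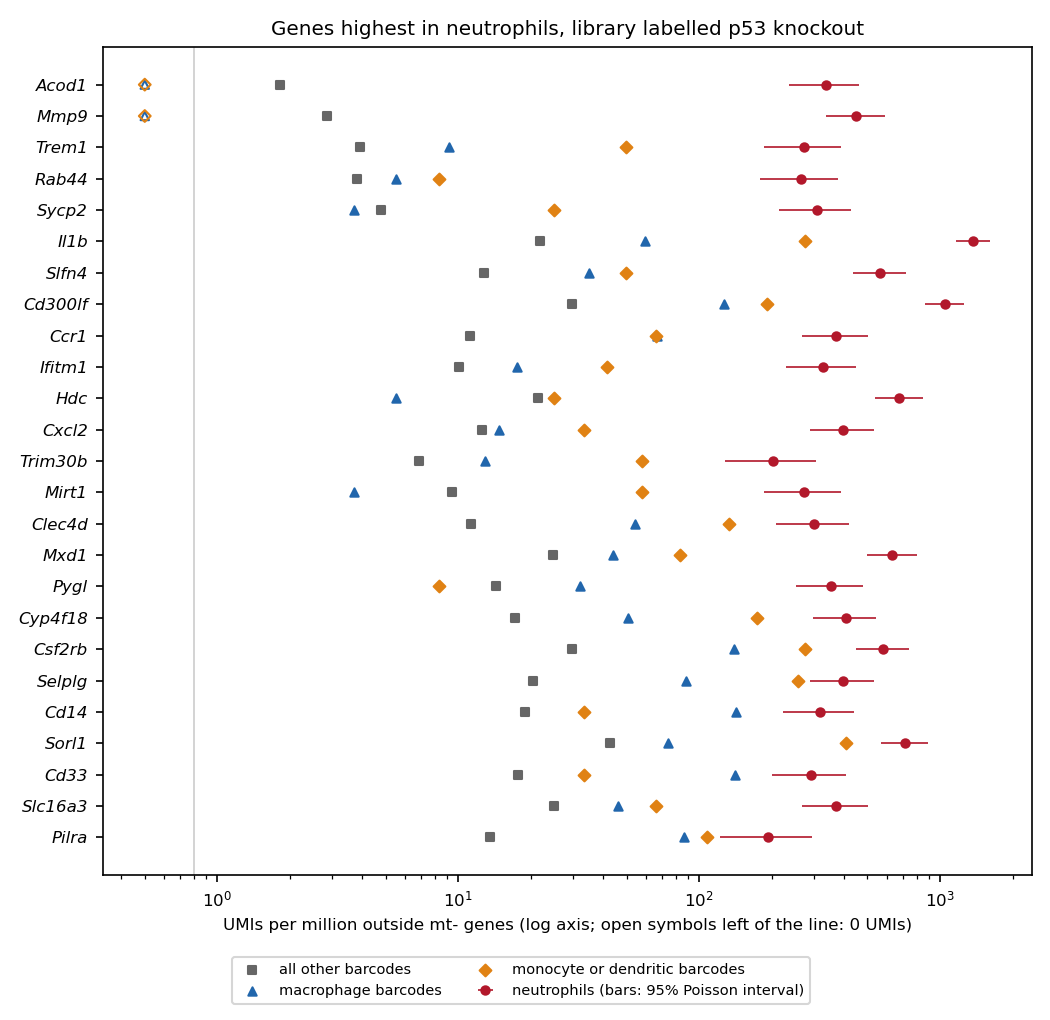
Level in CPM (horizontal, log axis) of the 25 genes with the highest ratio in neutrophils, with 95% Poisson intervals for neutrophils, beside all other barcodes, macrophage barcodes and monocyte or dendritic barcodes of the library labelled p53 knockout. Open symbols mark 0 UMIs. The neutrophil level lies above the other barcodes in each row, and Acod1 and Mmp9 are at 0 in macrophage and in monocyte or dendritic barcodes.

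The share of barcodes with a UMI of these genes differed between classes. Il1b was counted in 55.1% of neutrophils (exact 95% interval 43.4 to 66.4%), in 1.57% of fibroblast and 6.57% of macrophage barcodes, although neutrophils were the shallowest of these classes with medians of 911, 1710 and 1801 UMIs. After thinning to 500 UMIs the shares were 41.0%, 0.508% and 2.26%. Acod1 was counted in 23.1% of neutrophils, in 0.185% of fibroblast barcodes and in 0 of 487 macrophage barcodes.

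None of the 6 markers and the 25 leading genes was counted in all 78 cells at this depth. Il1b was at 0 in 35 neutrophils, at 1 in 9, at 2 in 9 and at 3 or more in 25, with a highest value of 10. Cxcl2 was at 0 in 61 and reached 7, and 5 neutrophils held 66.7% of its 45 UMIs. Of the 17 neutrophils with Cxcl2, 15 also had Il1b, and of the 18 with Acod1, 14 had Il1b. Mmp9 was seen in 21 and Il1b in 43, and 10 had both. These are counts within 1 library of 3 mixed hearts, from which neither animals nor states of the cell can be separated.

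**Figure D3:**
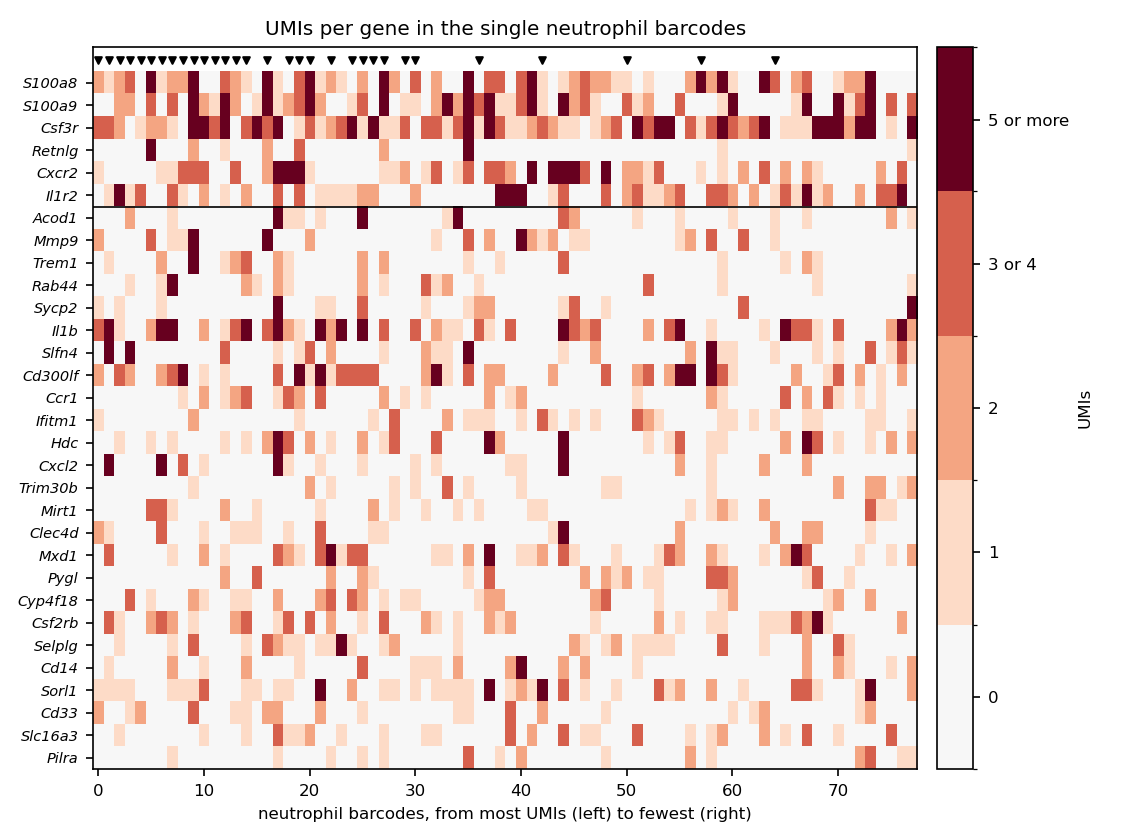
UMIs of the 6 marker genes (above the line) and of the 25 genes with the highest ratio (below it) in each of the 78 neutrophils, ordered from most to fewest UMIs, with triangles over the 31 barcodes that also met the marker minimum of another class. Csf3r is filled in 67 columns and Il1b in 43, while Mmp9 is filled in 21 and Retnlg in 9.

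Of genes other than the 6 markers that are known for neutrophil identity, 24 of 30 had a UMI in neutrophils and 11 entered the comparison. All 11 were 2-fold or more higher (298 of 2635 genes, 11.3%, were so). They were Mmp9, Trem1, Hdc, Clec4d, Mxd1 and Cd33, which are among the 25 above, with Adam8, a surface protease (log2 ratio 3.66, interval 3.17 to 4.08), Msrb1 (2.89), Lrg1 (2.59), Gda (2.03) and Dusp1, a phosphatase (1.52). Rarer genes gave few UMIs, such as Mcemp1 with 17, Asprv1 with 12 and Stfa2l1 with 8. Genes such as Mmp9 and Trem1 entered only through their level in neutrophils, so these counts describe the cells and do not test their name. Ly6g, the marker most used to sort mouse neutrophils, was at 0 UMIs, as were Cd177, Il1f9, Stfa2, Stfa3 and Cstdc6. Ly6g gave 1 UMI in all other barcodes of the library and 1 in the library labelled wild-type, and 0 UMIs allow up to 26.4 CPM in neutrophils.

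Granule genes were split by the stage at which they are made. Primary granule and precursor genes gave 1 UMI in all, of Mpo, while Elane, Prtn3, Ctsg, Ms4a3, Cebpe, Gfi1, Fcnb, Serpinb1a and Nkg7 were at 0. Of the 18 genes of later granules 16 had a UMI and 4 were compared. All 4 were 2-fold or more higher, beside 11.3% of all genes compared. They were Mmp9, Hp or haptoglobin (log2 3.56), the integrin chain Itgam (3.06) and Lcn2, an iron-scavenging protein (2.58, interval 1.86 to 3.16). The secondary granule genes Ngp and Ltf were confined to few cells, with 10 UMIs in 2 neutrophils and 7 UMIs in 1, and Mmp8 had 14 UMIs in 5. Camp was at 0. Cell cycle genes gave 29 UMIs over 17 genes, 8 of them at 0, and none entered the comparison. Their summed level was close to that of the other barcodes (256 against 283 CPM), and 24.4% of neutrophils and 27.7% of other barcodes had a UMI of them.

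Receptors for chemoattractants and growth factors were high beyond the markers. Of 6 compared besides those of the rule, 5 were 2-fold or more higher, beside 11.3% of all genes compared. They were Ccr1, Csf2rb, Cxcr4, Csf2ra (log2 1.96) and Tnfrsf1b (1.87), while Tnfrsf1a stood at 0.87. Cxcr4, the receptor of CXCL12, stood at 335 against 32.9 CPM (log2 3.36, interval 2.83 to 3.82). The formyl peptide receptor Fpr2 had 20 UMIs in 12 neutrophils (176 against 2.49 CPM) and the complement receptor C5ar1 20 UMIs in 16 (176 against 18.4 CPM). Cxcr1 was not counted in any barcode of either library. Cxcr4, which rises in aged and tissue neutrophils, was seen in 26 neutrophils.

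Adhesion and migration genes entered the comparison in 10 of 17 cases, and 6 were 2-fold or more higher, beside 11.3% of all genes compared. Selplg, the integrin chains Itgal (log2 3.49) and Itgam, the hyaluronan receptor Cd44 (105 UMIs in 38 neutrophils, 926 against 90.6 CPM, log2 3.36), and the actin regulators Coro1a (2.48) and Vasp (2.02) were high. Cd9 (0.07), Pecam1 (-0.31) and Icam1 (-0.44) were near or below the level of the other barcodes. Receptors for microbial products and antibodies entered in 7 cases and 6 were 2-fold or more higher, Trem1, Clec4d, Cd14, the adaptors Tyrobp (3.24) and Fcer1g (2.60), and Pirb (1.98), whereas Tlr4 stood at 0.33.

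The NADPH oxidase, the enzyme of the oxidative burst, was counted unevenly. The cytosolic subunit Ncf1 was high (26 UMIs in 18 neutrophils, 229 against 22.6 CPM, log2 3.37), and Ncf4 had 19 UMIs in 12 neutrophils. Cybb, the catalytic membrane subunit, gave 1 UMI in 1 neutrophil (8.82 CPM), against 55.0 CPM in the other barcodes, 336 CPM in macrophage and 665 CPM in monocyte or dendritic barcodes. Its membrane partner Cyba had 14 UMIs in 8 neutrophils. Rac1 was at 132 against 176 CPM (log2 -0.36, interval -1.25 to 0.31).

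Cytokines and mediators entered the comparison in 11 of 29 cases, and 7 were 2-fold or more higher, beside 11.3% of all genes compared. Beside Acod1, Il1b and Cxcl2 these were Alox5ap, needed to make leukotrienes (log2 3.61), Spp1, osteopontin (2.81), Lcn2 (2.58) and Thbs1 (1.06). Thbs1 rested on 13 neutrophils and stood at -0.38 once the barcodes with markers of another class were left out. The interleukin-1 antagonist Il1rn had 11 UMIs in 6 neutrophils (97.0 against 1.47 CPM). Tnf gave 1 UMI, Il6 gave 2 UMIs in 1 neutrophil, and Il1a and Il10 gave 0. Vegfa was lower, at 220 against 375 CPM (log2 -0.74, interval -1.40 to -0.21).

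Transcription factors entered in 14 of 24 cases, with 6 at 2-fold or more higher, beside 11.3% of all genes compared. Cebpb, the C/EBP factor of emergency granulopoiesis, had 94 UMIs in 40 neutrophils (829 against 148 CPM, log2 2.49, interval 2.17 to 2.78), followed by Junb (2.40), Spi1, which encodes PU.1 (2.25), Fosl2 (1.60), Bcl6 (1.56) and Runx1 (1.15). Cebpe and Gfi1, which act in precursors, were at 0, as was Cebpa. Survival genes entered in 6 of 20 cases and 3 were 2-fold or more higher, beside the same 11.3%: Mcl1, on which neutrophil life depends (102 UMIs in 43 neutrophils, 899 against 178 CPM, log2 2.35), the kinase Pim1 (2.09) and Bcl2l1 (1.19). Bcl2 stood at -0.24.

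Of p53 and its targets 8 of 27 were compared, 3 of them 2-fold or more higher and 1 lower, beside 11.3% and 5.28% of all genes compared. Plk3 (log2 3.31, interval 2.76 to 3.78), Mdm2, the ubiquitin ligase of p53 (1.48, interval 0.89 to 1.96), and Btg2 (1.18, interval 0.43 to 1.77) were higher and Plk2 (-1.51, interval -2.72 to -0.67) lower than in the other barcodes, which carry the same labelled genotype. Cdkn1a had 13 UMIs in 12 neutrophils (115 against 63.7 CPM) and Bax 12 UMIs in 9 (106 against 47.5 CPM), and neither entered. With 0 neutrophils in the library labelled wild-type, no value of these genes in neutrophils can be set against that genotype.

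Glycolysis and hypoxia genes entered in 16 of 26 cases, and 9 were 2-fold or more higher, beside 11.3% of all genes compared. Their median log2 ratio was 1.06, beside 0.07 over all genes compared. Examples were Slc16a3 (3.91), Pgk1 (1.70), Pkm (77 UMIs in 36 neutrophils, 1.63), Eno1 (1.61) and Ldha (1.10). Gapdh (0.83) and Aldoa (0.60) were under 2-fold, and Hif1a stood at 0.36. Interferon-inducible genes entered in 5 of 23 cases with 3 at 2-fold or more higher, beside the same 11.3%, namely Slfn4, Ifitm1 and Ifitm2 (1.06). Isg15 and Ifit2, which type I interferon induces, gave 1 UMI each, and Rsad2 had 12 UMIs in 8 neutrophils.

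Genes known from tissue neutrophils and from circulating neutrophils were both counted. Of 15 tissue genes 6 were compared and 2 were 2-fold or more higher, beside 11.3% of all genes compared. These were Cxcr4 and Csf1, the macrophage growth factor (56 UMIs in 29 neutrophils, 494 against 134 CPM, log2 1.90). Siglecf, a marker of long-lived tissue neutrophils, gave 2 UMIs. Of 13 circulating genes 6 besides Retnlg were compared and 4 were 2-fold or more higher, beside the same 11.3%: Mmp9, Slc16a3, Vsir (2.07) and Fgl2 (1.06). A UMI of a tissue gene was seen in 79.5% of neutrophils and 62.8% of other barcodes, and of a circulating gene in 83.3% and 57.3%. After thinning these shares were 59.0% and 32.8%, and 62.8% and 30.4%.

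**Figure D4:**
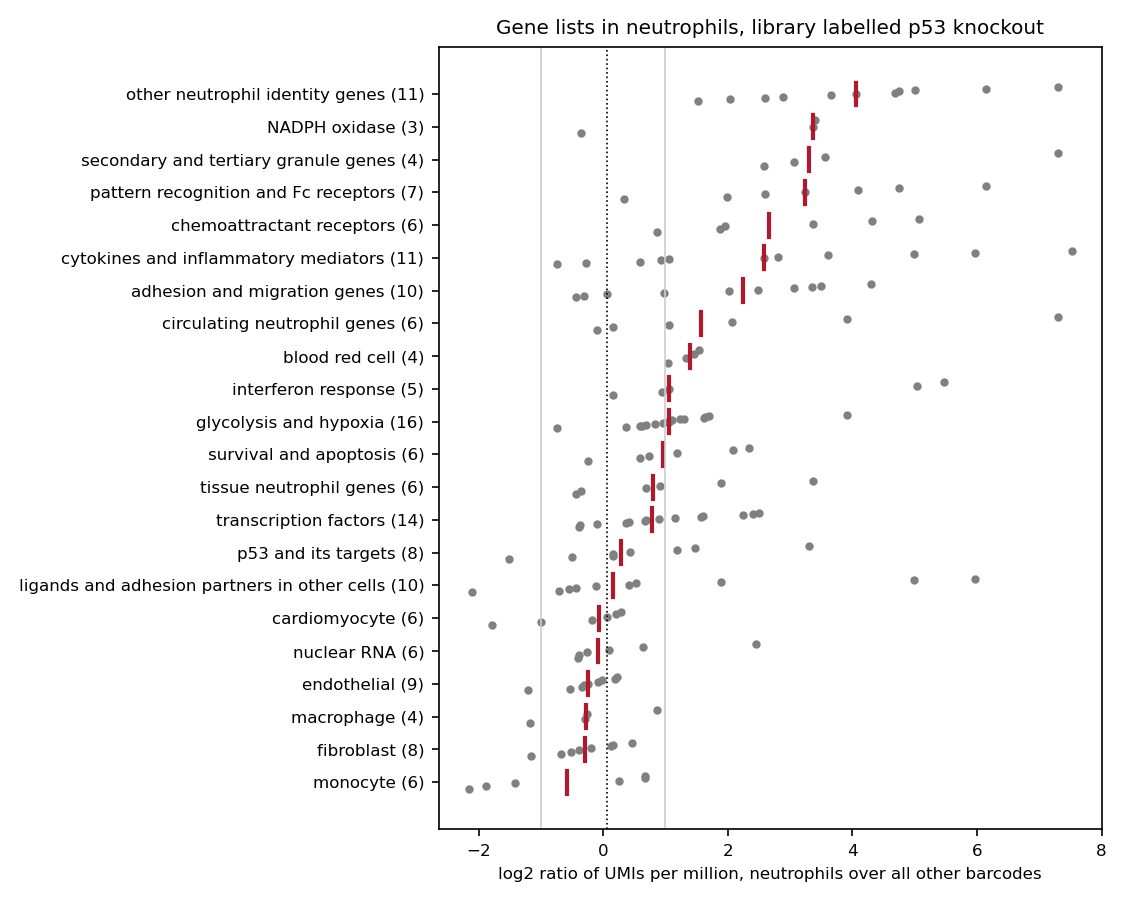
Log2 ratio of CPM, neutrophils over all other barcodes of the library labelled p53 knockout, for the compared genes of each list (grey points, number in brackets), with the median of each list in red. The dotted line is the median of all 2635 genes compared (0.07) and the grey lines mark 2-fold. Identity, granule and oxidase lists lie to the right, and the fibroblast, endothelial and monocyte medians lie below 0.

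The 8 lowest ratios rested on few UMIs in neutrophils. Myocd, a cofactor of smooth and cardiac muscle genes, had 1 UMI in neutrophils against 220 CPM elsewhere, and Mlip, a muscle protein, 3 UMIs (log2 -2.57, interval -5.07 to -1.24). Fgf13 (-3.11), Serpina3n (-2.77), Plscr2 (-2.72), Inpp4b (-2.35), Igfbp5 (-2.33) and the vascular transcription factor Nr2f2 (-2.32) followed. Igfbp5 was the only one with more than 4 UMIs in neutrophils, 20 in 14 barcodes (176 against 906 CPM).

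Against the 487 macrophage barcodes, the neutrophils were low in macrophage genes and high in the 25 leading genes. The neutrophil rule limited C1q and the class was chosen by macrophage genes, so this direction is partly set by the choice. Against all other barcodes, 1 of 4 macrophage genes compared was 2-fold or more lower, beside 5.28% of all genes compared there. Their median log2 ratio was -0.28. Of 14 macrophage genes 13 had a UMI, with 135 UMIs in 47 neutrophils, and of the 6 compared that did not choose the class 5 were 2-fold or more lower. Of 2649 genes compared, 401 (15.1%) were 2-fold or more higher and 320 (12.1%) 2-fold or more lower. All 25 leading genes were 2-fold or more higher, but they were picked as the highest in these same neutrophils, so this count is no evidence. Set against 3 UMIs in macrophage barcodes (2.76 CPM), where both were at 0, Mmp9 was 163-fold and Acod1 121-fold higher. Hdc (679 against 5.51 CPM), Sycp2 (309 against 3.68 CPM), Mirt1 (273 against 3.68 CPM) and Lcn2 (194 against 6.43 CPM) were also far apart. The scavenger receptor Cd163 was at 0 in neutrophils and at 733 CPM in macrophages, 27.7-fold above the CPM of 3 UMIs in neutrophils. Ms4a6b (438 CPM), Gas7 (241 CPM), Ifi204 (215 CPM) and Kcnk13 (207 CPM) were at 0 in neutrophils as well. F13a1, coagulation factor XIII and a marker of resident macrophages, stood at 70.5 against 2933 CPM (log2 -5.29).

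Against the 45 monocyte or dendritic barcodes, the nearest blood relatives, 496 of 2703 genes (18.3%) were 2-fold or more higher and 484 (17.9%) 2-fold or more lower. Of the 25 leading genes 22 were 2-fold or more higher, and Selplg (log2 0.62), Sorl1 (0.80) and Pilra (0.82) were under 2-fold. This count is no evidence either, since the 25 were picked from the same neutrophils. Set against 3 UMIs in these 45 barcodes, where they were at 0, Mmp9 was 18.0-fold, Acod1 13.4-fold and Csf1 19.8-fold higher. Ms4a6b (357 CPM), Adgre4 (291 CPM), Clec4a1 (274 CPM), Ms4a4b (258 CPM) and Grap2 (249 CPM) were at 0 in neutrophils, and Ccr2, the monocyte chemokine receptor, stood at 52.9 against 1139 CPM. Ccr2 also served to choose that class. Fgd5, Osmr and Postn, genes of endothelial cells and fibroblasts, were likewise among the highest ratios, at 282, 212 and 459 CPM in neutrophils against 0, 0 and 8.31 CPM.

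RNA of other heart cells accompanied part of the neutrophils. Of the 78, 31 also met the marker minimum of another class, 18 of fibroblasts (23.1%), 20 of endothelial cells (25.6%), 2 of macrophages and 1 of B cells, some of more than 1. Among B barcodes 11.6% met the fibroblast and 11.6% the endothelial minimum. The 31 had a median of 2146 UMIs and 4434 CPM of marker genes, the other 47 a median of 709 UMIs and 13935 CPM. The minimum of 4 marker UMIs is a larger share of a shallow barcode. Without the 31, all 25 leading genes stayed at a log2 ratio of 4.68 or more against the other barcodes. This is no evidence either, since the 25 were picked from neutrophils that include the 47. Without them the genes that were 2-fold or more higher numbered 730 and those lower 399, and 270 and 90 of the original 298 and 139 were among them. The fibroblast genes compared went from a median log2 ratio of -0.29 to -2.02 and the endothelial genes from -0.25 to -1.92, a direction that leaving out these barcodes fixes.

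Markers of other granulocytes, lymphocytes and platelets gave few UMIs, and not all stood below the other barcodes. Of 18 mast cell, basophil and eosinophil genes 14 were at 0, among them Cpa3, Prg2 and Epx, with 7 UMIs in all (61.7 against 120 CPM). Of 12 T and NK cell genes 10 were at 0, including Cd3e, Cd3d and Cd3g, with 3 UMIs in all (26.4 against 44.5 CPM). Of 8 B cell genes 1, Ms4a1, was at 0, and the list gave 31 UMIs in 12 neutrophils, about the level of the other barcodes (273 against 280 CPM) and 78.3 CPM in the 47 neutrophils without markers of another class. Of 8 platelet genes 6 were at 0, with 5 UMIs in 3 neutrophils (44.1 against 36.6 CPM). All 4 haemoglobin genes compared were 2-fold or more higher in neutrophils than in the other barcodes, beside 11.3% of all genes compared. Hba-a1, for example, stood at 1825 against 666 CPM. Genes of heart muscle cells summed to 4117 CPM in neutrophils and 9227 CPM in the other barcodes.

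Genes that attract, feed or hold neutrophils were then compared in all barcodes that were not neutrophils, between the libraries. Of 26 such genes 5 reached a mean of 100 CPM. Of these 1, complement C3, was 2-fold or more higher in the library labelled p53 knockout and 0 were lower. Of all 2523 genes 6.42% were 2-fold or more higher and 6.86% lower. C3 stood at 890 against 228 CPM (log2 1.97, interval 1.92 to 2.02). Within classes C3 stood at 1114 against 646 CPM in fibroblast, 138 against 71.3 CPM in endothelial and 1056 against 93.3 CPM in macrophage barcodes. Vcam1, the endothelial adhesion partner of leukocyte integrins, stood at 329 against 170 CPM (0.95, interval 0.89 to 1.01), but at 269 against 302 CPM within endothelial and 177 against 195 CPM within fibroblast barcodes. Anxa1 stood at 139 against 84.3 CPM, Cd47 at 254 against 203 CPM and Cxcl12 at 132 against 113 CPM. Over the whole list, 22 of 26 intervals lay above 0, 0 lay below and 4 held 0. Of the 28330 genes with a UMI 25.2% lay above and 21.9% below. Genes with few UMIs can hardly have an interval clear of 0, and these shares were not matched to the list in UMIs. Of the 26 genes 21 were under the 100 CPM mean. Within classes fewer lay above 0, 10 in endothelial, 14 in fibroblast and 11 in macrophage barcodes, and 2, 5 and 1 lay below, such as Cxcl12 in endothelial (278 against 313 CPM) and Cxcl1 (32.9 against 54.9 CPM) and Ccl7 (24.6 against 43.6 CPM) in fibroblast barcodes. These intervals cover counting error of 2 libraries only, and depth, sex, blood content and the amount of heart muscle RNA differ between the same libraries. In the barcodes compared, genes of heart muscle cells summed to 9227 CPM in the library labelled p53 knockout and 28632 CPM in the library labelled wild-type. The part of this difference in the ratios over all barcodes was not tested.

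Below the 100 CPM mean, the widest gap among genes with UMIs in both libraries was that of Selp, the P-selectin that first slows neutrophils on the vessel wall. It had 2973 UMIs in 731 barcodes of the library labelled p53 knockout (151 CPM) and 59 UMIs in 45 barcodes of the library labelled wild-type (3.29 CPM), 45.5-fold apart. Endothelial barcodes held 373 of the 2973 UMIs, so most lay outside that class. Within endothelial barcodes Selp stood at 90.7 against 7.38 CPM, and within fibroblast barcodes at 42.9 against 2.76 CPM. Csf3, which encodes G-CSF, had 93 UMIs in 40 barcodes against 0, 28.2-fold above the CPM of 3 UMIs in the library labelled wild-type. The attractant Cxcl3 had 99 UMIs in 40 barcodes against 0, 30.0-fold above the same level. Il6 had 726 against 29 UMIs (22.4-fold) and Cxcl2 248 against 16 UMIs (13.7-fold). Icam1, the ligand of the integrins Itgal and Itgam, stood at 126 against 38.0 CPM, Csf1 at 134 against 57.5 CPM and Ccl2 at 74.3 against 24.7 CPM. Within classes Ccl2 stood at 85.9 against 63.5 CPM in fibroblast, 24.8 against 18.2 CPM in endothelial and 104 against 25.6 CPM in macrophage barcodes.

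Not every attractant differed this much. Cxcl1 stood at 24.0 against 18.1 CPM (log2 0.41, interval 0.20 to 0.62), and Cxcl5 at 4.32 against 3.12 CPM with an interval that held 0 (-0.04 to 0.98). Icam2 stood at 76.4 against 62.9 CPM and Jam3 at 38.1 against 38.9 CPM. Il1b outside the neutrophils was at 21.9 against 7.75 CPM, while within macrophage barcodes it was at 59.7 against 101 CPM.

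**Figure D5:**
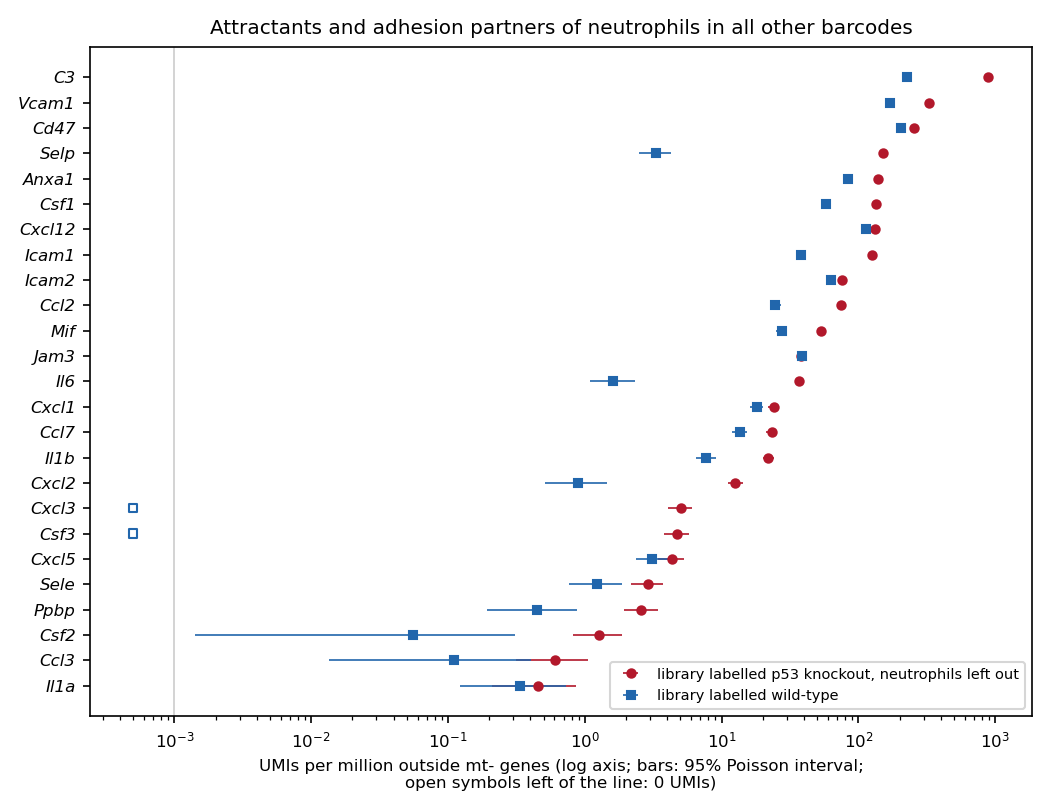
Level in CPM (horizontal, log axis, bars are 95% Poisson intervals) of genes that attract or bind neutrophils, in all barcodes other than neutrophils of both libraries. Genes with fewer than 10 UMIs over both libraries are not drawn, and open symbols mark 0 UMIs. Selp, Il6, Cxcl2, Cxcl3 and Csf3 lie far apart between the libraries, while Cxcl12, Jam3 and Cxcl1 lie close together.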

How the data were processed

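Single-cell RNA counts of 2 libraries (1 per genotype, 3 hearts mixed in each) were used. The deposited files hold raw UMI counts per gene and barcode that the authors made with Cell Ranger and Seurat on mm10, per the submitters' processing notes, with versions and filters not given in the sources used here. A 10x 3' kit is named in the labels' protocols, but each barcode consists of 3 blocks of 9 bases, so the kit is not settled. The files hold 32589 gene models, and gene positions are from GENCODE vM21 on the same build. Depth per library and class is given with the results.

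The rule and all gene lists were chosen with earlier results of these data known. Every deposited barcode was used. No doublet caller was run, and barcodes with markers of another class were counted and left out as an alternative. Other classes needed 4 UMIs from 2 or more of their markers, the same cardiomyocyte limit, and few UMIs of excluded genes. These caps were not adjusted for depth. Outside the neutrophils of the library labelled p53 knockout, the marker minimum alone was met by 548 macrophage, 4152 fibroblast and 3756 endothelial barcodes. With the limits, 487, 2167 and 2183 were used. UMIs were summed per group and scaled to counts per 1000000 UMIs outside mt- genes (CPM), and log2 ratios had 0.5 UMI added. Genes with a mean CPM of both groups of at least 100 were compared, and genes that chose a class were left out of list counts. Intervals are 95% (exact binomial for ratios and shares, Poisson for levels), a count of 0 was bounded at 3 UMIs, and all cover counting error only, since UMIs are molecules of 1 library. Thinning drew 500 UMIs per barcode (seed 1). Named genes were, without ribosomal, haemoglobin, mt- and unnamed gene models, the 25 highest and 8 lowest against other barcodes, the 8 highest and 6 lowest against macrophages, the 6 highest and 6 lowest against monocytes or dendritic cells, and of each of 32 lists the 6 with the most UMIs and the extreme ratios. Other genes named were chosen after their values were seen, as were the genes with 0 or few UMIs. Some genes of the lists are not reported here. The alternatives changed the rule, the scaling and the filters. The ratio code was tested on simulated counts. Python 3.11.15, numpy 2.4.6, scipy 1.17.1 and pandas 2.3.3 were used.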

Additional observations from a re-analysis of the deposited data

How the results depend on the processing

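No paired analysis was possible because each genotype has 1 library. No neutrophil was found in the library labelled wild-type under any setting except a minimum of 3 marker UMIs, which gave 1. The number in the other library lay between 47 and 90, with 47 (0.465%) without barcodes that met another class's marker minimum, 49 (0.484%) after thinning, 0.603% at a minimum of 6 UMIs and 0.593% with 3 or more marker genes. Against other barcodes, genes 2-fold or more higher and lower numbered 730 and 399 without barcodes at another class's minimum, 377 and 290 when each barcode had equal weight (298 and 139 as reported), and 61 and 23 at a mean of 300 CPM, where fewer genes enter. At 300 CPM they numbered 84 and 77 against macrophages and 83 and 101 against monocytes or dendritic cells. An alternative added after seeing the data, leaving out those barcodes, gave 669 higher genes against macrophages. The log2 ratio turned its sign in 7 of the cases given here. Without those barcodes it was -0.38 for Thbs1 and 0.39 for Mrc1 against other barcodes, -0.11 for Osmr, -0.31 for Flt1 and -0.85 for Emcn against macrophages, and -0.85 for Npr3 against monocytes or dendritic cells. With a minimum of 3 UMIs for the latter class it was -0.041 for Gsn. The cause was not tested. The 25 leading genes kept a log2 ratio between 3.80 and 8.49 against other barcodes under all alternatives run. They were picked as the highest in these same neutrophils, so this range is no evidence. Of the attractants and adhesion partners compared between libraries, 1 stayed 2-fold higher and 0 lower. With 113424 nuclear UMIs in 78 cells, 1 UMI is worth 8.82 CPM, so genes under about 26.4 CPM could not be told from 0.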

Other observations

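Over all 78 neutrophils, nuclear-retained RNAs had a summed level close to that of macrophage barcodes. The 6 genes of that list, Xist among them, summed to 30443 CPM in neutrophils, 30897 CPM in macrophage barcodes, 38547 CPM in the other barcodes of the same library and 53492 CPM in the library labelled wild-type. Mir142hg, the host transcript of a blood cell microRNA, was 2-fold or more higher, with 40 UMIs in 26 neutrophils (353 against 65.3 CPM) and 790 CPM in monocyte or dendritic barcodes. Kcnq1ot1 stood at 317 against 424 CPM, 0 of the 6 were 2-fold or more lower, and the median log2 ratio was -0.08. In the 47 neutrophils without markers of another class the sum was 22650 CPM, below that of macrophage barcodes. There 2 of the 6 were 2-fold or more lower than in the other barcodes, and the median log2 ratio was -0.74.

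Part of the marker RNA outside the neutrophils lay in few other barcodes. The 26 barcodes with 4 or more marker UMIs that were kept out by C1q held 207 marker UMIs, 77 of them of S100a8 or S100a9. The 487 macrophage barcodes held 64 marker UMIs, the 2167 fibroblast barcodes 46 and the 2183 endothelial barcodes 47. The 199 B barcodes held 4. These classes were also limited in the UMIs of excluded genes, and 0 neutrophils were in the macrophage, fibroblast or endothelial class. The low sums are thus partly set by that choice.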
